A study of Mus musculus with 9 samples.

Results

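The genes described here are 41 genes of NF-kB signalling and leukocyte adhesion, taken from a list of symbols and looked up in a table of 55487 genes measured in MCEC, a mouse cardiac endothelial cell line. Each of the 41 symbols matched 1 gene. They comprise 5 NF-kB subunits, 8 IkB proteins and feedback inhibitors with the TNF-induced gene Tnfaip2, 4 members of the IKK complex and its upstream kinase NIK, 6 TRAF and cIAP adaptors, 7 genes of Toll-like and IL-1 receptor signalling, 2 TNF receptors, 4 inflammatory cytokines and 4 leukocyte adhesion molecules. Membership follows that list, with no threshold on a measured value, and the list was drawn up with earlier results of these data known.

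Poly-A RNA was sequenced in 9 libraries that form 3 groups of 3, namely MCEC of wild-type genotype (WT), MCEC with Zbtb46 knocked down (KD) and MCEC with enforced overexpression of Zbtb46 (OE). Zbtb46 encodes a zinc finger transcription factor with a BTB domain. The labels do not state by which construct Zbtb46 was lowered or raised or whether a group is 1 clone, and they name no cytokine or other treatment. Cells carrying an empty vector were not among the libraries analysed here, so effects of the constructs themselves and of Zbtb46 cannot be told apart. Nothing states that the replicates came from separate cultures, so p values measure the spread between these libraries, which may be technical.

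NF-kB transcription factors are dimers that IkB proteins hold in the cytoplasm. Receptors for TNF, IL-1 and Toll-like receptor ligands recruit TRAF and IRAK adaptors, which switch on the IKK complex, and IKK marks the IkB proteins for degradation. NIK drives an alternative route through Nfkb2 and Relb. Released NF-kB induces genes of its own inhibitors, and in endothelial cells also the selectins and cell adhesion molecules on which leukocytes roll and arrest.

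Total counts ran from 39491828 to 55745849 per library. Zbtb46 itself stood at 13.7 ± 0.623 CPM (counts scaled to a common TMM-adjusted library total, mean ± SD, n = 3) in WT, at 11.2 ± 0.537 CPM in KD and at 191 ± 2.67 CPM in OE, so that the knockdown libraries retained most of the WT level (-17.8%, edgeR adjusted p = 0.00144). Of 15 endothelial markers, 7 were measurable (among them Eng, Flt1 and Kdr), while the defining genes Pecam1, Cdh5, Cldn5, Vwf, Emcn, Erg, Tie1 and Robo4 were at or near 0 in all groups. The fibroblast genes Col1a1 and Col3a1 were among the high transcripts, and the summed level of 8 fibroblast markers was 8123 to 8995 CPM in WT, 8079 to 8204 CPM in KD and 5095 to 5206 CPM in OE. Ribosomal RNA took 7.44% to 17.3% of counts in WT, 9.55% to 12.0% in KD and 14.4% to 18.2% in OE. Replicates differed most in WT. Scaled by library totals, the median squared difference between libraries of a group was 8.17 to 11.2 times that of sampling noise in WT. It was 3.01 to 3.9 times in KD and 3.05 to 5.52 times in OE. The edgeR tests take 1 spread per gene from all 9 libraries, so it is not that of WT alone.

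Of the 41 genes, 37 passed the filter on low counts and were tested together with all other genes, 16955 in total. In KD against WT, 3 members were higher and 8 were lower at an adjusted p under 0.05 (quasi-likelihood test of edgeR, adjusted by Benjamini-Hochberg over all genes tested), or 29.7% of those tested, where 21.3% of all genes tested were called, 11% higher and 10.4% lower. In OE against WT, 9 were higher and 10 lower, or 51.4%, where 36.4% of all genes were called, 17.0% higher and 19.5% lower. In OE against KD, 11 were higher and 12 lower, or 62.2%, where 41.5% of all genes were called, 19.4% higher and 22.1% lower. Every tested member but Traf1 had at least 10 counts in every library. In a fit on the 14361 genes with such counts, 1758 were higher and 1677 lower in KD against WT. The counts were 2707 and 3196 in OE against WT, and 3127 and 3556 in OE against KD. In each comparison and direction these are larger shares than those among the 16955 genes. The part of expression level in the shares of called genes was not tested. The median log2 fold change of the tested members was close to that of all genes in each comparison, at -0.032 beside -0.0022 for KD against WT, 0.0018 beside 0.002 for OE against WT and 0.042 beside 0.011 for OE against KD.

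Among called changes, the largest against WT were falls in OE. All 3 measurable adhesion molecules (Vcam1, Selp and Icam1), the cytokine gene Il33 and the adaptor gene Myd88 were lower in OE, by 1.85-fold to 3.31-fold against WT. Every other change called against WT was of at most 1.37-fold, apart from Tlr4 in KD (1.49-fold) and Tlr3 in OE (1.71-fold). When a change beyond 1.5-fold was required, 4 members remained lower in OE against WT (Vcam1, Selp, Il33 and Myd88), 6 in OE against KD (these and Icam1 and Tlr4), and 0 were called in KD against WT (edgeR's glmTreat, and 0 at an unadjusted p under 0.05), where 11 were called without a minimum fold. With library totals alone in place of TMM, 11 of the 53 differences called over the 3 comparisons did not pass, and 1 member (Tlr3) in place of 9 was higher in OE against WT. Relb in OE and Map3k14 and Birc3 in KD also missed the threshold against WT without the filter on low counts or with only the groups compared in the fit.

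**Figure D1:**
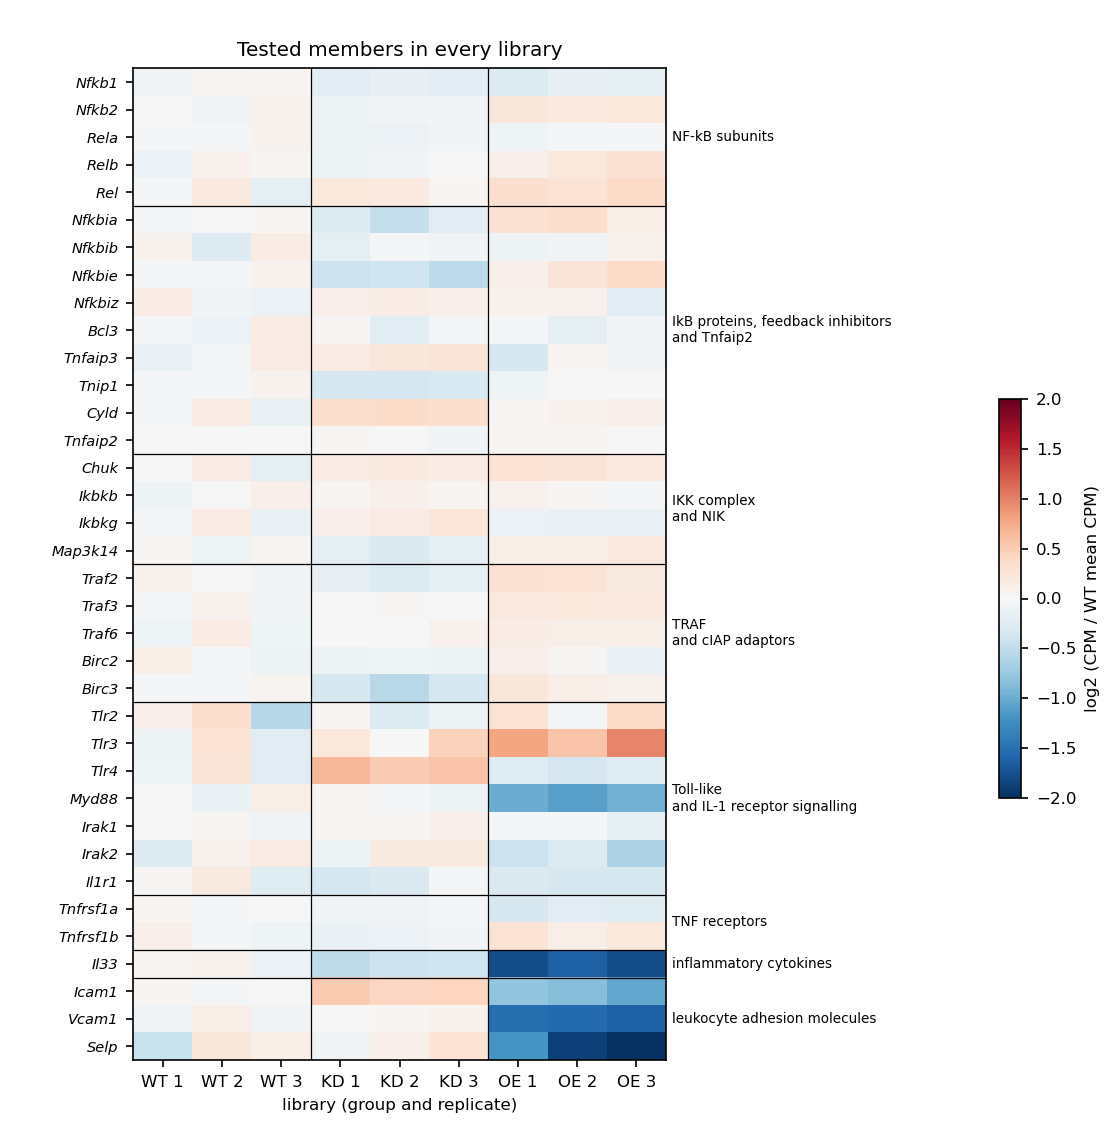
Heat map of 36 tested members (rows, ordered by role; Traf1, which is near 0, is left out) in the 9 libraries (columns, 3 per group). Colour gives log2 of the CPM over the mean CPM of the 3 WT libraries, capped at the ends of the colour scale. The blue cells of Il33, Vcam1, Selp, Myd88 and Icam1 in OE stand out from the pale rows of the subunits and adaptors.

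Promoter sequences were examined because many of these genes are known NF-kB targets. RefSeq promoter entries (GRCm38.p6) were matched by symbol for 35 of the 41 genes, which leaves out Nfkb1, Relb, Nfkbiz, Ikbkb, Tlr4 and Vcam1. The 250 bases before the annotated start were searched on both strands. The kappa-B consensus, the general binding motif of NF-kB dimers, was found in 13 of the 35 genes (37.1%), beside 8.23% of 27025 genes in the RefSeq table with windows of the same length. The shorter site GGAAATTCC, searched after the values had been seen, was found in 3 of 35 (Nfkbia, Tnfaip3 and Icam1), beside 0.344% of all genes. In Nfkbia it overlaps the consensus match. Either motif was present in 14 genes, which are those drawn in the plot of match positions.

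Of the 11 members called in KD against WT, 5 hold a match, beside 14 of all 35 members with an entry (40%). Nfkb1 and Tlr4, also called in KD, have no entry. A link between match and call was not tested. The sequences of the 5 genes are shown with the matched bases in capitals. They are written 5′ to 3′ along the strand of the gene and end at the base before the RefSeq start. The Nfkbia stretch is chr12:55492648-55492897 on the minus strand, that of Nfkbie chr17:45555450-45555699 on the plus strand and that of Tnip1 chr11:54962941-54963190 on the minus strand. The Cyld stretch is chr8:88696778-88697027 on the plus strand and that of Icam1 chr9:21015690-21015939 on the plus strand.
Nfkbia: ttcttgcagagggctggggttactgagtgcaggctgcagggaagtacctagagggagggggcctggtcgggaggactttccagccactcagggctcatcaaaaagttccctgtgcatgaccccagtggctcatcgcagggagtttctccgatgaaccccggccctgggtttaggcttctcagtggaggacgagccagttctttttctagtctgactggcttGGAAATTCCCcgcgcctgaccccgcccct
Nfkbie: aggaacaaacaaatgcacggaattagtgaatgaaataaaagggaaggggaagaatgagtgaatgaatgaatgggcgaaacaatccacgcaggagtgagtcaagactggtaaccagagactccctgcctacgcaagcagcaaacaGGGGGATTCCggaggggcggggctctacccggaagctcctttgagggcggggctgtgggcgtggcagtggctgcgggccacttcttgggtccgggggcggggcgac
Tnip1: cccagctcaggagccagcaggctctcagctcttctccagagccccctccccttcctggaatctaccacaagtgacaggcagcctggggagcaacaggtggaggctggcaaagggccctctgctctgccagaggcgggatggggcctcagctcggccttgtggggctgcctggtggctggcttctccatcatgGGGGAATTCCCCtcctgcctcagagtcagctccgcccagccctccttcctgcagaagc
Cyld: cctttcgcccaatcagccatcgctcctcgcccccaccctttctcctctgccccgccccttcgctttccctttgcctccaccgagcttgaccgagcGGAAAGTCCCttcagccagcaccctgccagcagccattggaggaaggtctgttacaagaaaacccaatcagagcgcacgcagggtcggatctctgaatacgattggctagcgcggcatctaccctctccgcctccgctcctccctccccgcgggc
Icam1: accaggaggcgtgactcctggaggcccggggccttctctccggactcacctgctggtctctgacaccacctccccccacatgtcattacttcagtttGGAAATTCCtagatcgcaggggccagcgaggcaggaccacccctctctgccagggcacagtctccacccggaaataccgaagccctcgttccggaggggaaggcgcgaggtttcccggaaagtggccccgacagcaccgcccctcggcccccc

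In Nfkbia, Nfkbie and Tnip1, genes of inhibitors that were lower in KD, the capitals mark the consensus. In Tnip1 the capitals join 3 overlapping matches. Cyld, which was higher in KD, also holds a consensus match, and Icam1, higher in KD and lower in OE, holds the shorter site only. Genes with a match moved in both directions. A match describes these letters and no binding was measured. Among genes with an entry, Il33, Selp, Myd88, Birc3, Map3k14 and Traf2 hold neither motif in this window.

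**Figure D2:**
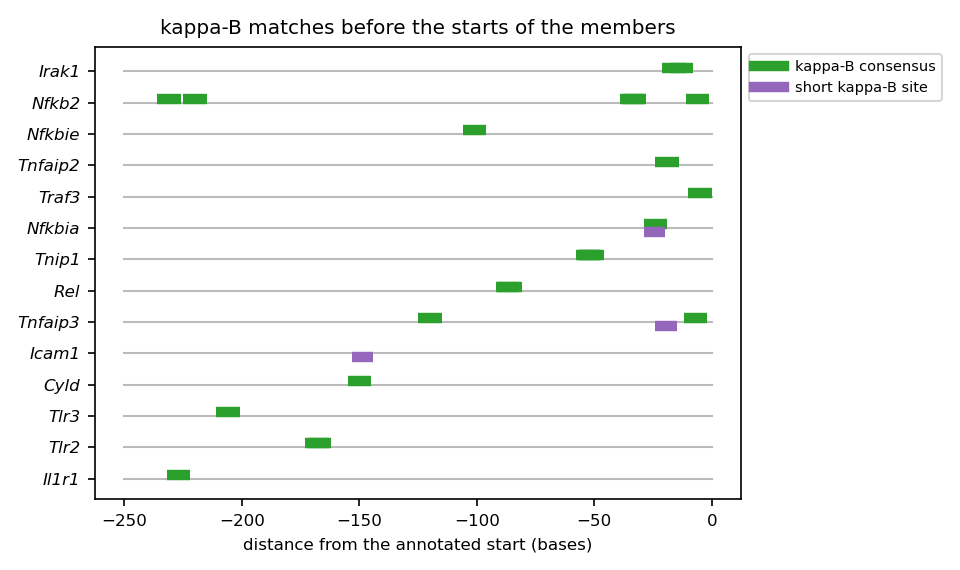
Positions of kappa-B matches in the 250 bases before the RefSeq start of the 14 members that hold one (rows; Nfkb2 and Irak1 combine the windows of several annotated starts). The x axis is the distance from the start in bases, green bars are matches to the kappa-B consensus and purple bars the shorter site, which lies in Nfkbia, Tnfaip3 and Icam1.

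Among the leukocyte adhesion molecules, Vcam1, which binds the integrin VLA-4 on leukocytes (chr3:116109949-116129688 in GENCODE M21 on GRCm38), stood at 69.1, 79.6 and 69.3 CPM in WT, 73.3, 74.3 and 76.0 CPM in KD and 25.6, 24.7 and 23.5 CPM in OE. All OE libraries lay far below the others, and WT and KD overlapped. Vcam1 fell in OE 2.96-fold against WT (log2 fold change -1.57, SE 0.076, edgeR adjusted p = 2.87e-14) and 3.03-fold against KD (log2 fold change -1.60, SE 0.039, edgeR adjusted p = 1.41e-14). In KD against WT its log2 fold change was 0.035 with an SE of 0.069, taken here as throughout from the SDs of log2 CPM (edgeR adjusted p = 0.739).

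Icam1, the ligand of leukocyte beta-2 integrins (chr9:21015985-21028817), was the adhesion gene that changed in both comparisons. It stood at 5.43, 5.19 and 5.28 CPM in WT, 7.59, 7.03 and 7.15 CPM in KD and 3.07, 2.95 and 2.58 CPM in OE. The 3 groups did not overlap, with KD highest and OE lowest. Icam1 rose in KD (log2 fold change 0.45, SE 0.038, edgeR adjusted p = 0.00964) and fell in OE 1.85-fold against WT (log2 fold change -0.88, SE 0.077, edgeR adjusted p = 1.32e-05). The level in OE was 2.53-fold lower than in KD (log2 fold change -1.34, SE 0.082, edgeR adjusted p = 2.38e-08). Neighbouring genes moved the same way, with medians over the genes tested in the same 20 Mb window of chromosome 9 of 0.11 in KD and -0.35 in OE on the log2 scale. With the window medians taken off, the log2 fold change of Icam1 was 0.35 in KD (edgeR adjusted p = 0.0509) and -0.54 in OE (edgeR adjusted p = 0.00282).

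Selp encodes P-selectin, on which leukocytes roll (chr1:164115264-164150026), and was a low transcript at 1.95, 3.11 and 2.91 CPM in WT, 2.52, 2.84 and 3.20 CPM in KD and 1.17, 0.727 and 0.533 CPM in OE. The OE libraries were below every other library, and WT and KD overlapped. Selp fell in OE 3.29-fold against WT (log2 fold change -1.72, SE 0.38, edgeR adjusted p = 1.81e-05) and 3.50-fold against KD (log2 fold change -1.81, SE 0.33, edgeR adjusted p = 6.44e-06). Sele, the gene of E-selectin and its neighbour on chromosome 1, was not tested, with 0 to 2 counts per library. Per kb of exon the adhesion genes differed in WT, at 8.19 CPM per kb for Vcam1, 1.22 for Icam1 and 0.602 for Selp. The fall of the adhesion genes in OE went with that of fibroblast markers, of which all 6 tested, of 8 listed, were lower in OE against WT. In KD against WT, 1 fibroblast marker was higher (Thy1) and 1 lower (Col1a1). With window medians taken off, neither passed in KD (Thy1 0.05, edgeR adjusted p = 0.681, Col1a1 -0.1, edgeR adjusted p = 0.0735). Pdgfra was then lower in KD (-0.26, edgeR adjusted p = 0.0483). The fall of Thy1 in OE shrank from -0.65 to -0.24 (edgeR adjusted p = 0.0157). The summed level of 7 mural cell markers was 12.1 to 14.8 CPM in WT, 7.01 to 7.24 CPM in KD and 4.44 to 5.5 CPM in OE, with 1 lower in KD and 2 lower in OE against WT, Acta2 among them in both (log2 fold change -1.47 in KD and -2.14 in OE). Of the 7 tested endothelial markers, 5 were lower in KD, and 2 were higher and 4 lower in OE against WT, with a summed level of 152 to 164 CPM in WT, 125 to 133 CPM in KD and 115 to 127 CPM in OE. The part of these markers in the changes of the adhesion genes was not tested. In bulk RNA, fewer cells of a type and less RNA per cell cannot be told apart.

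**Figure D3:**
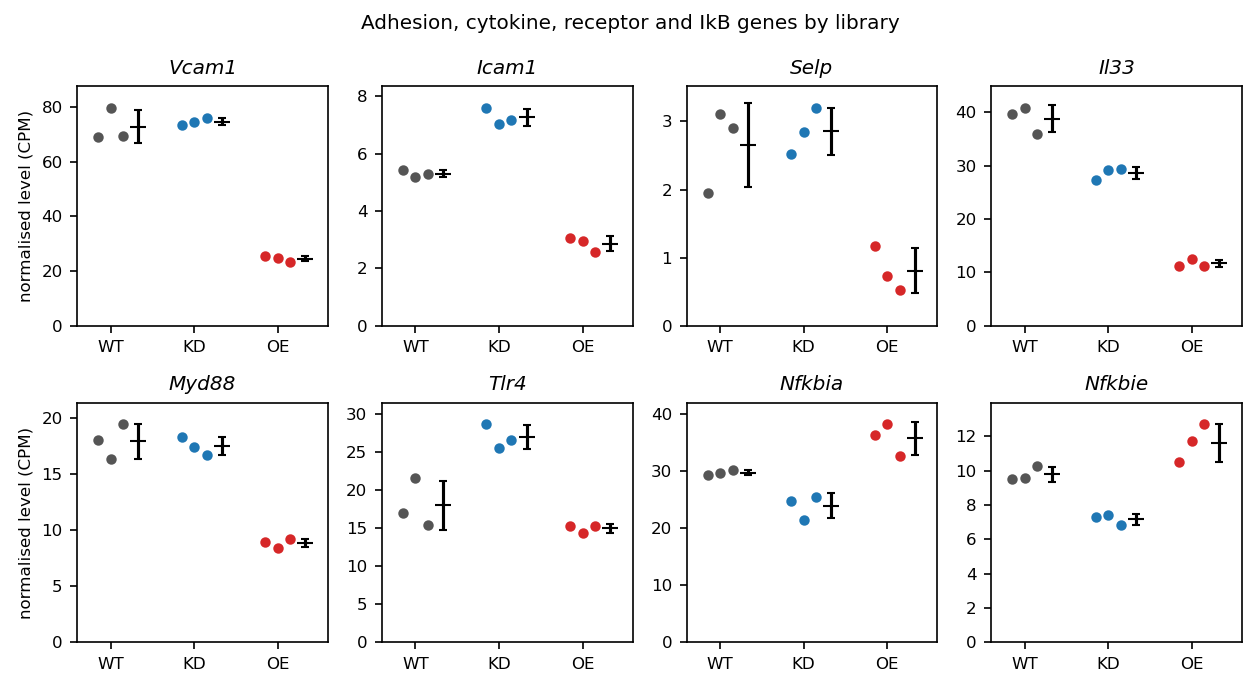
Normalised levels (y axis, CPM, from 0) of 8 members in each library, with 3 points per group and the mean and SD beside them. Vcam1, Icam1, Selp, Il33 and Myd88 are lowest in OE, Tlr4 and Icam1 are highest in KD, and Nfkbia and Nfkbie rank KD below WT below OE.

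Of the 4 inflammatory cytokine genes, Il33, a nuclear alarmin of the IL-1 family that signals through MyD88 once released (chr19:29925114-29960718), was the only one with more than 10 counts in any library. It stood at 39.7, 40.8 and 35.9 CPM in WT, 27.3, 29.1 and 29.3 CPM in KD and 11.3, 12.5 and 11.3 CPM in OE. The 3 groups did not overlap, and both changed groups lay below WT. Il33 fell in KD 1.36-fold (log2 fold change -0.44, SE 0.064, edgeR adjusted p = 5.89e-05) and in OE 3.31-fold (log2 fold change -1.73, SE 0.074, edgeR adjusted p = 9.98e-14), and OE lay below KD (log2 fold change -1.29, SE 0.059, edgeR adjusted p = 6.56e-12). The other cytokines were not tested: Tnf had 0 to 4 counts per library, Il1a 0 to 10 and Il1b 0 to 1. The highest values of Il1a were those of the 3 OE libraries, at 10, 4 and 4 counts, beside 0 to 2 in the others.

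In Toll-like and IL-1 receptor signalling, 1 of 7 genes was higher in KD against WT, and 1 was higher and 4 were lower in OE against WT. These are 14.3% in KD, below the 21.3% of all genes tested, and 71.4% in OE, beside 36.4% of all genes. Myd88, the adaptor shared by IL-1 receptors and most Toll-like receptors (chr9:119335934-119341411), stood at 18.0, 16.3 and 19.4 CPM in WT, 18.3, 17.4 and 16.7 CPM in KD and 8.95, 8.42 and 9.18 CPM in OE. The OE libraries were all below the others, and WT and KD overlapped. Myd88 fell in OE 2.02-fold against WT (log2 fold change -1.01, SE 0.082, edgeR adjusted p = 7.47e-09) and 1.97-fold against KD (log2 fold change -0.98, SE 0.053, edgeR adjusted p = 7.15e-09). Acaa1a, a peroxisomal thiolase gene, overlaps Myd88 on the opposite strand over 290 exonic bases and had a log2 fold change of -0.99 in OE against WT (edgeR adjusted p = 2.64e-08). Whether counting used strand is not given in the sources used here, so reads of the overlap cannot be assigned to either gene.

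Tlr4, the receptor for lipopolysaccharide (chr4:66827584-66930284), stood at 17.0, 21.6 and 15.4 CPM in WT, 28.6, 25.5 and 26.6 CPM in KD and 15.3, 14.3 and 15.3 CPM in OE. KD libraries were above all others, and OE libraries lay just below the lowest WT library. Tlr4 rose in KD 1.49-fold (log2 fold change 0.57, SE 0.15, edgeR adjusted p = 0.00026), and its fall in OE against WT was small (log2 fold change -0.27, SE 0.15, edgeR adjusted p = 0.038). That last call was lost on leaving out WT replicate 2, KD replicate 3 or any OE library, with only the WT and OE libraries fitted, with window medians taken off and with upper-quartile scaling. Against KD the OE level was lower 1.80-fold (log2 fold change -0.85, SE 0.058, edgeR adjusted p = 8.96e-07). Tlr3, the receptor for double-stranded RNA, moved the other way in OE and stood at 2.77, 3.58 and 2.53 CPM in WT, 3.44, 2.96 and 4.06 CPM in KD and 5.14, 4.40 and 5.80 CPM in OE. OE libraries were above all others. Tlr3 rose in OE 1.71-fold against WT (log2 fold change 0.78, SE 0.19, edgeR adjusted p = 0.000992). Against KD its rise (log2 fold change 0.55, SE 0.17, edgeR adjusted p = 0.0116) was lost without KD replicate 2, without OE replicate 3 or with window medians taken off.

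Irak2, a kinase downstream of MyD88, stood at 8.73, 11 and 11.6 CPM in WT, 9.73, 11.8 and 11.8 CPM in KD and 7.76, 8.56 and 6.78 CPM in OE. OE libraries were below the other groups, and WT and KD overlapped. Irak2 fell in OE against WT (log2 fold change -0.44, SE 0.16, edgeR adjusted p = 0.00628) and against KD (log2 fold change -0.52, SE 0.13, edgeR adjusted p = 0.0013). Il1r1, the signalling receptor for IL-1, stood at 21.5, 24.1 and 17.9 CPM in WT, 16.6, 17.4 and 20.7 CPM in KD and 17.3, 16.9 and 17.0 CPM in OE. OE values were below every WT value but within the range of KD. Il1r1 fell in OE against WT (log2 fold change -0.31, SE 0.12, edgeR adjusted p = 0.0177), a call lost without WT replicate 2, OE replicate 2 or OE replicate 3, and its log2 fold change in KD was -0.22 (edgeR adjusted p = 0.135), which passed with window medians taken off and without WT replicate 3 or KD replicate 3. Irak1, at 51.9 to 63.6 CPM, differed only between OE and KD (log2 fold change -0.14, SE 0.059, edgeR adjusted p = 0.043), a call lost on leaving out any KD library, OE replicate 2 or OE replicate 3, with window medians taken off and with 2 other scalings. Tlr2, which senses bacterial lipopeptides, varied from 4.68 to 9.09 CPM and was called only in OE against KD, without WT replicate 3 or with those 2 groups fitted alone.

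Of the TNF receptors, Tnfrsf1a (TNFR1, the widely expressed receptor) had the highest level per length of all members in WT, at 59.2 CPM per kb of exon, and stood at 157, 151 and 152 CPM in WT, 145, 146 and 151 CPM in KD and 123, 131 and 129 CPM in OE. OE libraries were below all others. Tnfrsf1a fell in OE against WT (log2 fold change -0.27, SE 0.032, edgeR adjusted p = 2.91e-05) and against KD (log2 fold change -0.21, SE 0.033, edgeR adjusted p = 0.000305). Tnfrsf1b (TNFR2) stood at 48.1, 44.5 and 42.2 CPM in WT, 41.2, 41.7 and 43.1 CPM in KD and 54.6, 49.3 and 52.2 CPM in OE, with the OE libraries highest. It rose in OE against WT (log2 fold change 0.21, SE 0.07, edgeR adjusted p = 0.00672) and against KD (log2 fold change 0.31, SE 0.047, edgeR adjusted p = 0.000202). In its 20 Mb window of chromosome 4 the tested genes had a median of 0.30 on the log2 scale in OE against WT, and with the window medians taken off the values of Tnfrsf1b turned negative, at -0.09 against WT (edgeR adjusted p = 0.268) and -0.15 against KD (edgeR adjusted p = 0.0455). The call against WT was also lost without OE replicate 1. Neither receptor passed the test in KD against WT.

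Of the 8 genes of IkB proteins and feedback inhibitors and Tnfaip2, 3 fell and 1 rose in KD against WT, and 1 rose in OE against WT. These are 44.4% in KD, beside 21.3% of all genes tested, and 11.1% in OE, below the 36.4% of all genes. Nfkbia encodes IkB-alpha, the inhibitor that NF-kB re-induces (chr12:55489410-55492647), and stood at 29.3, 29.7 and 30.2 CPM in WT, 24.8, 21.4 and 25.5 CPM in KD and 36.4, 38.2 and 32.6 CPM in OE. The groups did not overlap and ranked KD below WT below OE. Nfkbia fell in KD (log2 fold change -0.31, SE 0.079, edgeR adjusted p = 0.00374) and rose in OE (log2 fold change 0.26, SE 0.069, edgeR adjusted p = 0.0063). The rise in OE was lost without OE replicate 2 and with window medians taken off, while OE and KD differed 1.49-fold (log2 fold change 0.58, SE 0.1, edgeR adjusted p = 1.38e-06).

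Nfkbie, the gene of IkB-epsilon (chr17:45555703-45563169), stood at 9.49, 9.58 and 10.3 CPM in WT, 7.29, 7.43 and 6.82 CPM in KD and 10.5, 11.7 and 12.7 CPM in OE. It ranked the groups as Nfkbia did, with no overlap. Nfkbie fell in KD 1.36-fold (log2 fold change -0.45, SE 0.053, edgeR adjusted p = 0.00265), missed the threshold in OE against WT (log2 fold change 0.25, SE 0.09, edgeR adjusted p = 0.0526) and was 1.62-fold higher in OE than in KD (log2 fold change 0.70, SE 0.089, edgeR adjusted p = 7.27e-06). The difference of Nfkbie between OE and WT passed under 7 alternatives, with adjusted p values from 0.0248 to 0.0495 (RLE and upper-quartile factors, DESeq2, limma-voom, window medians taken off, and edgeR without WT replicate 3 or OE replicate 1). Tnip1 (ABIN-1), a ubiquitin-binding partner of A20, stood at 125, 124 and 133 CPM in WT, 102, 100.4 and 103 CPM in KD and 119.9, 127 and 126 CPM in OE. KD libraries were below all others, and WT and OE overlapped. Tnip1 fell in KD (log2 fold change -0.32, SE 0.032, edgeR adjusted p = 1.54e-05) and was higher in OE than in KD (log2 fold change 0.29, SE 0.028, edgeR adjusted p = 1.43e-05).

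Cyld, a deubiquitinase that restrains the pathway, went the opposite way in KD, at 82.0, 91.9 and 75.0 CPM in WT, 105, 107 and 105 CPM in KD and 84.4, 88.0 and 89.3 CPM in OE. KD libraries were above all others, and WT and OE overlapped. Cyld rose in KD (log2 fold change 0.34, SE 0.085, edgeR adjusted p = 0.000172) and was lower in OE than in KD (log2 fold change -0.27, SE 0.027, edgeR adjusted p = 0.000569). Tnfaip3 (A20, the ubiquitin-editing inhibitor) stood at 11.7 to 14.5 CPM in WT, 14.5 to 15.6 CPM in KD and 10.4 to 13.4 CPM in OE. It was called only in OE against KD (log2 fold change -0.32, SE 0.11, edgeR adjusted p = 0.0128). This call was lost without KD replicate 3 or OE replicate 1. KD and WT did not overlap before rounding, and Tnfaip3 missed the threshold there (log2 fold change 0.22, SE 0.094, edgeR adjusted p = 0.13). Without WT replicate 3 it passed (edgeR adjusted p = 0.0393). Nfkbib, Nfkbiz, Bcl3 and Tnfaip2 passed no test (Nfkbib was called in KD against WT without WT replicate 2), with log2 fold changes against WT from -0.09 to 0.12. Nfkbib shares 42 exonic bases with Sirt2 on the opposite strand.

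Among the NF-kB subunits, 1 of 5 genes was lower in KD against WT, and 3 were higher and 1 was lower in OE against WT. The share called in KD was just below the 21.3% of all genes tested, and that in OE was above the 36.4% of all genes. The 3 higher in OE (Nfkb2, Rel and Relb) all missed the threshold with library totals alone in place of TMM. The call of Relb was lost in 11 alternatives. Nfkb1 (p105, precursor of p50) stood at 134, 143 and 147 CPM in WT, 121, 126 and 121 CPM in KD and 117, 126 and 125 CPM in OE. WT libraries were above all others, and KD and OE overlapped. Nfkb1 fell in KD (log2 fold change -0.20, SE 0.043, edgeR adjusted p = 0.0028) and by a like amount in OE (log2 fold change -0.21, SE 0.051, edgeR adjusted p = 0.0011). Nfkb2 (p100, precursor of p52) stood at 156, 148 and 165 CPM in WT, 145, 149.6 and 149.9 CPM in KD and 183, 179 and 181 CPM in OE, with the OE libraries above all others. Nfkb2 rose in OE against WT (log2 fold change 0.21, SE 0.046, edgeR adjusted p = 0.00054) and against KD (log2 fold change 0.29, SE 0.017, edgeR adjusted p = 1.49e-05). Its exons overlap those of Psd over 299 bases on the opposite strand, and Psd had a log2 fold change of -0.46 in OE against WT (edgeR adjusted p = 1.68e-07). A further antisense gene, AC114539.1, shares 531 bases and had -0.53 (edgeR adjusted p = 0.00851).

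Rel (c-Rel) stood at 15.6, 18.2 and 13.9 CPM in WT, 18.5, 18.2 and 16.3 CPM in KD and 19.8, 19.3 and 20.8 CPM in OE. OE libraries were highest, and WT and KD overlapped. Rel rose in OE against WT (log2 fold change 0.32, SE 0.12, edgeR adjusted p = 0.00706), and its difference between OE and KD missed the threshold (log2 fold change 0.18, SE 0.064, edgeR adjusted p = 0.127), which it passed with upper-quartile factors or with those 2 groups fitted alone. Relb, partner of p52, stood at 19.6, 22.7 and 21.7 CPM in WT, 19.9, 20.4 and 21.3 CPM in KD and 22.9, 24.6 and 25.9 CPM in OE. OE libraries lay just above the others. Relb was higher in OE against WT (log2 fold change 0.19, SE 0.08, edgeR adjusted p = 0.041), a call near the threshold that was lost without WT replicate 1 or 3, any KD library, or OE replicate 2 or 3. Against KD it was higher by 0.25 on the log2 scale (edgeR adjusted p = 0.00759), lost without KD replicate 1. Rela (p65), next to Tnfrsf1a in level per length in WT at 53.2 CPM per kb, stood at 150.5 to 172 CPM and passed no test, with log2 fold changes of -0.094 in KD and -0.063 in OE against WT.

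**Figure D4:**
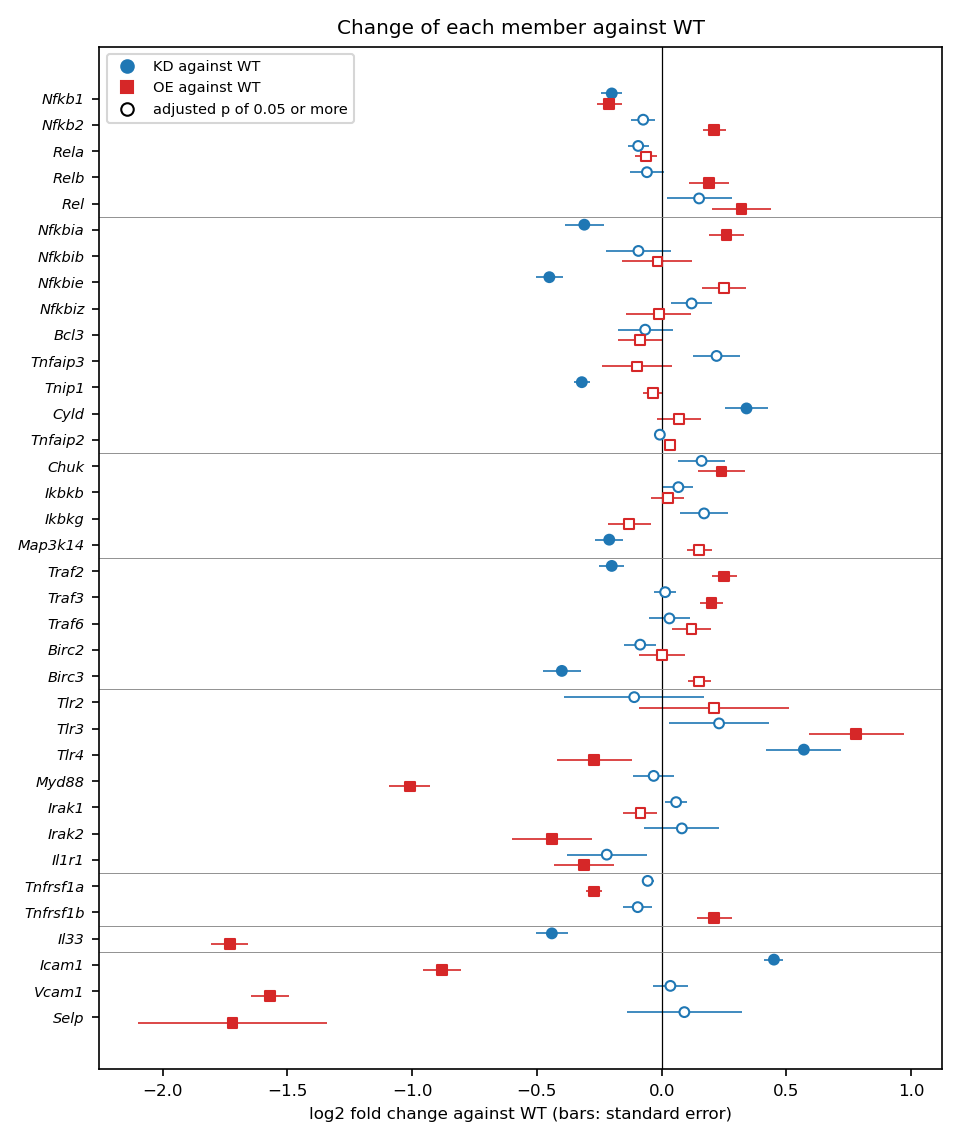
Log2 fold change against WT (x axis, bars are the SE) of 36 tested members, with KD as blue circles and OE as red squares, open where the adjusted p was 0.05 or more. Traf1, which is near 0 CPM, is left out. The subunits, IKK genes and other adaptors lie between -0.40 and 0.32, and the OE values of Il33, Vcam1, Selp, Myd88 and Icam1 lie between -1.73 and -0.88.

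In the IKK group, Map3k14 (NIK), the kinase that activates IKK-alpha, stood at 19.5, 18.1 and 20 CPM in WT, 16.9, 15.7 and 17.0 CPM in KD and 20.8, 20.8 and 21.9 CPM in OE. The groups did not overlap and ranked KD below WT below OE. Map3k14 was lower in KD (log2 fold change -0.21, SE 0.056, edgeR adjusted p = 0.043), a call lost without WT replicate 1 or 3, any KD library, or OE replicate 1 or 2, with window medians taken off and with limma-voom. OE and KD differed more clearly (log2 fold change 0.36, SE 0.044, edgeR adjusted p = 0.000365). Chuk (IKK-alpha) stood at 68.2, 74.5 and 59.8 CPM in WT, 75.1, 77.4 and 74.5 CPM in KD and 81.5, 80.4 and 77.1 CPM in OE. OE libraries were above all others, and WT and KD overlapped. Chuk rose in OE against WT (log2 fold change 0.24, SE 0.095, edgeR adjusted p = 0.00446). In KD against WT Chuk missed the threshold (log2 fold change 0.16, SE 0.094, edgeR adjusted p = 0.0662). It passed there with replicate number added to the fit (edgeR adjusted p = 0.0361), without the filter on low counts (0.0245) and without WT replicate 2 (0.00116). Ikbkb (IKK-beta), at 43.3 to 49.7 CPM, passed no test. Ikbkg (NEMO, the regulatory subunit) was lower in OE than in KD (log2 fold change -0.30, SE 0.039, edgeR adjusted p = 0.00416), and it shares 418 exonic bases with G6pdx on the opposite strand, whose log2 fold change there was 0.16 (edgeR adjusted p = 0.0105).

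Traf2, an adaptor of TNF receptors, stood at 39.7, 37.7 and 36.5 CPM in WT, 33.9, 31.4 and 33.5 CPM in KD and 46.6, 45.9 and 43.1 CPM in OE. The groups did not overlap and ranked KD below WT below OE. Traf2 fell in KD (log2 fold change -0.20, SE 0.05, edgeR adjusted p = 0.0159), a call lost without WT replicate 1 or KD replicate 2 and with window medians taken off, and rose in OE (log2 fold change 0.25, SE 0.05, edgeR adjusted p = 0.00156). It was 1.37-fold higher in OE than in KD (log2 fold change 0.46, SE 0.049, edgeR adjusted p = 1.56e-06). Birc3 (cIAP2, a ubiquitin ligase that works with TRAF2) stood at 4.90, 4.94 and 5.17 CPM in WT, 4.01, 3.42 and 3.91 CPM in KD and 5.82, 5.49 and 5.29 CPM in OE, again ranked KD below WT below OE. Birc3 was lower in KD (log2 fold change -0.40, SE 0.075, edgeR adjusted p = 0.0313), a call lost without any 1 KD library or WT replicate 1 or 3, and higher in OE than in KD (log2 fold change 0.55, SE 0.082, edgeR adjusted p = 0.00164). With window medians taken off, the log2 fold change of Birc3 was -0.56 in KD against WT (edgeR adjusted p = 0.00363). It was then 0.33 in OE against WT (edgeR adjusted p = 0.051) and 0.89 in OE against KD (edgeR adjusted p = 1.04e-05).

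Traf3, which holds NIK at low levels, stood at 63.6, 69.1 and 62.5 CPM in WT, 65.7, 66.4 and 65.2 CPM in KD and 74.2, 75.4 and 74.8 CPM in OE. OE libraries were above all others, and WT and KD overlapped. Traf3 rose in OE against WT (log2 fold change 0.20, SE 0.045, edgeR adjusted p = 0.00238) and against KD (log2 fold change 0.19, SE 0.01, edgeR adjusted p = 0.00351). Traf6, the adaptor of IL-1 and Toll-like receptors, stood at 29.9 to 35.2 CPM and was called only in OE against WT without WT replicate 2. Birc2 (cIAP1) stood at 16.5 to 19.6 CPM and passed no test on the values as fitted. It lies on chromosome 9, and with window medians taken off its log2 fold change was -0.25 in KD against WT (edgeR adjusted p = 0.0327) and 0.44 in OE against KD (edgeR adjusted p = 0.000165), in place of -0.086 and 0.088. Traf1, an adaptor of TNF receptors and the lowest tested member, stood at 0.132, 0.218 and 0.134 CPM in WT, 0.318, 0.0251 and 1.43 CPM in KD and 1.39, 0.343 and 0.667 CPM in OE. OE libraries were above all WT libraries, and KD spanned both groups. Its fitted differences from WT were the largest of any tested member but missed the threshold, at 2.24 in OE (SE 0.58, edgeR adjusted p = 0.118) and 1.85 in KD (SE 1.3, edgeR adjusted p = 0.262) on the log2 scale. Traf1 was called in OE against WT without KD replicate 2 (edgeR adjusted p = 0.0135), without KD replicate 3 (0.0115), with only the WT and OE libraries fitted (0.00489) and without the filter on low counts (0.0152). It was also called in KD against WT without KD replicate 2 and in OE against KD without KD replicate 3.

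Counted over libraries, 13 of the 37 tested members had KD and WT values that did not overlap (34.7% of all genes tested), 24 had OE and WT values that did not overlap (45.1% of all genes), and 26 had OE and KD values that did not overlap (55.4% of all genes). Members called in both comparisons with WT were Nfkbia and Traf2 (lower in KD, higher in OE), Tlr4 and Icam1 (higher in KD, lower in OE), and Nfkb1 and Il33 (lower in both). Both comparisons use the same WT libraries, and the share of all genes called in both is not given here. Their values are therefore given side by side only, and no excess over all genes is read from them. The comparison of OE with KD, fitted with the WT libraries in the same model, called Nfkbia, Traf2, Tlr4, Icam1 and Il33, and Nfkb1 had a log2 fold change of -0.0054 there (edgeR adjusted p = 0.941). For Nfkbia, Traf2, Tlr4 and Icam1 this difference is made up of the opposite changes by which they were selected. Their calls there are therefore no separate result.

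Genes outside the 41 members were examined in 3 lists. Of 61 tested genes among 68 other pathway genes, 6 were higher and 8 lower in KD against WT (23.0%, near the 21.3% of all genes), and 8 were higher and 10 lower in OE against WT (29.5%, below the 36.4% of all genes). Their median log2 fold changes were 0.014 and 0.02. In OE, Il18, a cytokine of the IL-1 family, fell (log2 fold change -1.48, edgeR adjusted p = 1.06e-08), and so did Tirap, the MyD88 bridging adaptor (-0.55, edgeR adjusted p = 7.56e-06), and Peli3 (-0.57, edgeR adjusted p = 0.00182). Tirap lies in the same 20 Mb window of chromosome 9 as Icam1, and Il18 in the next, where the median was -0.41. With window medians taken off, the values were -1.07 for Il18 and -0.20 for Tirap (edgeR adjusted p = 0.0501). Tnfrsf12a (0.28), Zc3h12a (0.36) and Cul1 (0.18) were higher in OE. In KD, Il1rn, the IL-1 receptor antagonist, fell (-0.88, edgeR adjusted p = 0.00134), as did Tnfrsf11a (-0.62) and Peli3 (-0.37), and Il18 (0.41), Irak1bp1 (0.39) and Il1rap (0.30) rose. Of these calls, that of Zc3h12a was lost without WT replicate 3 or OE replicate 2 and at 0.01 with window medians taken off, and that of Cul1 without WT replicate 3 or OE replicate 3. In KD, the call of Il18 was lost without WT replicate 1 or KD replicate 3, with library totals alone (edgeR adjusted p = 0.0595) and, at a log2 fold change of 0.25, with window medians taken off (edgeR adjusted p = 0.164). That of Tnfrsf11a was lost without WT replicate 1 or 2 or any KD library, and that of Peli3 was lost with window medians taken off (edgeR adjusted p = 0.108) and without 7 of the 9 libraries in turn, namely all but WT replicate 2 and KD replicate 2.

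Of 29 tested genes among 40 other NF-kB target genes, 4 were higher and 11 lower in KD against WT (51.7%, beside 21.3% of all genes), and their median log2 fold change was -0.24. In OE against WT 6 were higher and 11 lower (58.6%, beside 36.4% of all genes, with a median of -0.12). The chemokine genes Cxcl5 (-1.70), Cxcl1 (-1.46) and Cxcl12 (-1.46, edgeR adjusted p = 3.53e-11) fell in KD, and Ptgs2 (0.42), Csf1 (0.28) and F3 (0.24, lost on leaving out WT replicate 1 or either of KD replicates 1 and 2) rose. In OE, Csf1, the macrophage growth factor, fell from 824 ± 16.2 to 366 ± 7.07 CPM (n = 3, log2 fold change -1.17, edgeR adjusted p = 1.94e-15), and Cxcl10 (-1.0) and Lif (-0.84, or -0.32 with window medians taken off) fell too. Ptx3, a soluble pattern recognition molecule, rose in OE from 3.23 ± 0.808 to 31.9 ± 1.33 CPM (n = 3, log2 fold change 3.28, edgeR adjusted p = 4.56e-13), and Ccnd1 (0.64) and Ier3 (0.26) were also higher.

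Of 27 tested genes among 37 other genes of leukocyte adhesion and transmigration, 8 were higher and 5 lower in KD against WT (48.1%, beside 21.3% of all genes), and their median log2 fold change was -0.035. In OE against WT 4 were higher and 12 lower (59.3%, beside 36.4% of all genes, with a median of -0.15). In KD, Alcam (-0.76), Cd34 (-0.51) and Podxl (-0.47) fell, and Chst2 (0.55, lost without KD replicate 2), Cav1 (0.48) and St3gal4 (0.47) rose. In OE, St3gal4 (-0.88), Jam3 (-0.82) and Alcam (-0.63) fell, and Pvr (0.40) and Itga5 (0.28) rose. St3gal4 and Jam3 share the chromosome 9 window of Icam1, and with window medians taken off their values in OE were -0.53 and -0.48. Chst2, a sulfotransferase that helps build selectin ligands, rose most (1.96, edgeR adjusted p = 3.43e-10). Pecam1, Cdh5 and Vwf, also on this list, were not tested for lack of counts.

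**Figure D5:**
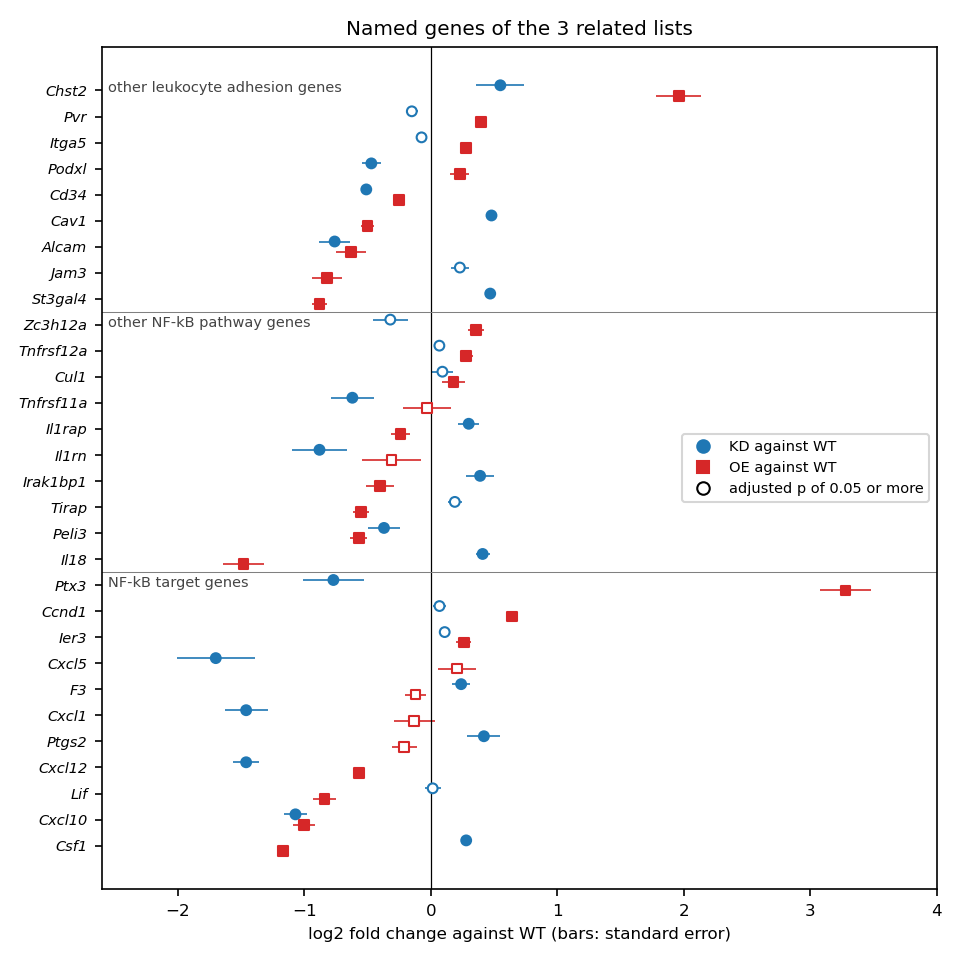
Log2 fold change against WT (x axis, bars are the SE) of the genes named from the 3 lists of related genes, with KD as blue circles and OE as red squares, open where the adjusted p was 0.05 or more. Ptx3 and Chst2 stand to the right in OE, and Cxcl5, Cxcl1 and Cxcl12 to the left in KD.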

How the data were processed

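The authors deposited 1 table of raw counts, whole numbers for each Ensembl gene in each library. Per the submitters' processing notes the build was GRCm38 (mm10). The aligner, the counting program and the use of strand are not given in the sources used here. Of 55774 rows, 455 repeat 168 genes with identical counts, and each gene was used once (55487 genes). 0 columns were left over.

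Counts were filtered with filterByExpr, scaled with TMM and fitted over all 9 libraries with edgeR 4.0.16 (glmQLFit and glmQLFTest, robust) in R 4.3.3, with limma 3.58.1 and DESeq2 1.42.0 as alternatives. Benjamini-Hochberg adjustment covered 16955 genes, and calls needed an adjusted p under 0.05. The procedure was tested on simulated data with 1 spread per gene for all groups and genes drawn independently. That test does not cover unequal spread between groups or shifts shared by neighbouring genes. Plots were drawn with matplotlib 3.10.9 and tables made with pandas 2.3.3 and numpy 2.4.6 in Python 3.11.15.

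CPM are counts scaled to a common TMM-adjusted total. Each SE was computed from group SDs on the log2 CPM scale, with a prior count of 2. Positions, exon lengths and overlaps come from GENCODE M21. With 3 libraries a group, the smallest two-sided p of an exact permutation test is 0.1, and calls therefore rest on the edgeR fit over all genes.

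The members and lists were chosen with earlier results of these data known. Members called against WT are given in full if a group mean reached 1 CPM. From each list of related genes, up to 3 rises and 3 falls per comparison with WT are named, by size among called genes whose groups do not overlap and whose level passes a minimum. Ccl19 and Ccl21a match 2 identifiers each and Cd99 none, so they were left out. Replicate numbers did not pair the samples. Alternatives were other scalings, filters, tools and fits, the replicate block, a minimum fold change of 1.5, leaving out each library, and taking off the median log2 fold change of the tested genes in each 20 Mb window.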

Additional observations from a re-analysis of the deposited data

How the results depend on the processing

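Of 53 member differences called, 10 passed under all 20 alternatives and 33 under all but the minimum fold change of 1.5. All 53 passed with DESeq2, RLE factors and at least 10 counts in every library. The minimum fold lost 43 of them. Of the 58 member differences not called, 18 passed in at least 1 alternative, and 8 of these did so other than by leaving out a library. Under the minimum fold change of 1.5 the members called were 0 higher and 0 lower in KD against WT, 0 higher and 4 lower in the OE to WT comparison, and 0 higher and 6 lower in that of OE with KD (edgeR's glmTreat, with 0, 0, 1, 5, 1 and 6 at an unadjusted p under 0.05). Other pathway genes called were then 0, 1 and 3, NF-kB target genes 4, 4 and 7, and other leukocyte adhesion genes 0, 2 and 4 in the same order of comparisons (2 pathway genes and 1 adhesion gene in KD had an unadjusted p under 0.05).

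With library totals alone, 1 member was higher in OE against WT in place of 9, and 8 other pathway genes were called in KD in place of 14. With only the groups compared the latter were 9. The share of higher among all called genes was 51.4% in KD and 46.6% in OE against WT, and 35.8% and 31.6% with library totals alone. In OE against KD it was 46.8%, and 57.6% with upper-quartile factors. The cause of these shifts was not tested.

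Leaving out each library in turn gave 3 to 6 members higher and 5 to 10 lower in KD against WT, 7 to 20 other pathway genes (7 without KD replicate 3) and 8 to 14 other leukocyte adhesion genes (8 without KD replicate 2). The 6 higher came without WT replicate 2, and the 5 lower without WT replicate 1 or KD replicate 2. With window medians taken off, Tnfrsf1b reversed, to -0.0895 (OE against WT) and -0.152 (OE against KD) on the log2 scale.

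Deviations of same-numbered libraries from their group means correlated at -0.042 to 0.049 over 9 pairs, so the numbers were not taken as pairs. With the replicate block, 4 members were higher and 8 lower in KD against WT, 9 and 10 in OE against WT, and 11 and 12 in OE against KD. The block lost 0 of the 53 calls, and the call it added in KD against WT was that of Chuk.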
